A study of Sus scrofa with 6 samples.

Results

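The genes described here encode the proteins of the cytosolic ribosome. Members were all protein-coding genes whose Ensembl symbol on the pig genome Sscrofa11.1 is RPL or RPS followed by a number and at most a letter, an X or an L, together with RPLP0, RPLP1, RPLP2 and RPSA. Of 54 such symbols, 48 had a gene ID listed in the files, among 25973 gene IDs with an mRNA, and they carried 120 of the 58079 mRNA transcripts. The large subunit accounted for 23 members and the small subunit for 25. The gene IDs of RPL13A, RPL22, RPL36, RPS10, RPS14 and RPS26 were not listed. A further 17 loci without a symbol overlapped RefSeq ribosomal protein genes, and they were kept apart as a check.

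Longissimus thoracis (LT), a muscle of the back, and semitendinosus (ST), a muscle of the hind leg, were sampled from 3 Min pigs of 1 age, a Chinese indigenous breed. The pigs were of genotype WT and untreated as far as the labels say, and LT and ST of a pig carry the same number. Total RNA without rRNA was sequenced in 6 libraries, 3 per muscle. Values were deposited in FPKM, which divides the fragments on a transcript by its length and by the mapped fragments of the library. Gene totals are sums of FPKM over the mRNA transcripts of a gene ID. The files hold no fragment counts, so no counting interval is given for a single value. LT and ST differ in meat quality and fat content, and the question asked here is how far they differ in the mRNAs of the ribosome.

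A ribosome joins a small subunit, which reads the mRNA, to a large subunit, which makes the peptide bond, and each subunit holds single copies of nearly all its proteins around rRNA. The mRNAs of these proteins are among the most abundant of any cell, and they start with a terminal oligopyrimidine tract through which mTOR and LARP1 control their translation. Striated muscle is known for RPL3L, a paralog that takes the place of RPL3 in its ribosomes. Ribosomal protein genes have many processed pseudogenes with nearly the same sequence. How the authors shared reads between such copies is not given in the sources used here, so the level of each member is uncertain to that extent.

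ST replicate 2 stood apart from the other libraries. It held the lowest value of 39 of the 47 members above 0, and it lay below LT of the same pig in 42. Relative to each gene's mean over the 6 libraries, the members in ST replicate 2 had a median of -0.43 on the log2 scale, while the other libraries lay between -0.052 and 0.17. Over all genes tested, the same library had a median of -0.040. The summed FPKM of the muscle fibre markers was 20630.5 in ST replicate 2, against 16390.3 and 15048 in the other ST libraries and 20510 to 26756 in LT. Its part in the result was not tested. The main counts and medians of the members are also given without this library, a choice made after the data were seen.

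Of the muscle fibre markers, 9 of 14 were listed, all above an FPKM of 1, and the symbols MB, MYH1, MYH2, MYH7 and TTN were not listed. The 4 endothelial markers listed summed to 47.1 to 71.0 FPKM in LT and to 113 to 164 in ST, without overlap. Adipocyte markers summed to 137 to 269 in LT and 127 to 192 in ST, fibroblast markers to 632 to 1346 and 665 to 1239, leukocyte markers to 52.3 to 55.3 and 53.6 to 75.4, red blood cell markers to 675 to 1052 and 574 to 1016, satellite cell markers to 2.07 to 3.79 and 2.83 to 4.53, and markers of Schwann cells and nerve to 0.611 to 18.4 and 0.460 to 10.7. In whole muscle, fewer cells of a type and less RNA per cell cannot be told apart. Mitochondrial transcripts held 3.49% ± 0.688 (SD, n = 3) of fragments, estimated from FPKM and length, in LT and 7.56% ± 1.24 (SD, n = 3) in ST, and FPKM is a relative unit. Scaling to nuclear transcripts is given as an alternative in the closing section.

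The 47 members above 0 spanned 160-fold in mean FPKM, from 21.7 for RPS27L to 3472 for RPLP1, with a median of 257. RPLP1, an acidic protein of the stalk to which elongation factors bind, was the highest member in all 6 libraries. Among the next highest, RPL10 had a mean of 1083, RPS16 one of 988 and RPL23A, which lies at the exit of the peptide tunnel, one of 893. The lowest after RPS27L were RPL28 at 23.3 and RPS20 at 35.6. RPL10L, a retrogene paralog of RPL10 known from testis, was listed at 0 in all libraries.

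**Figure D1:**
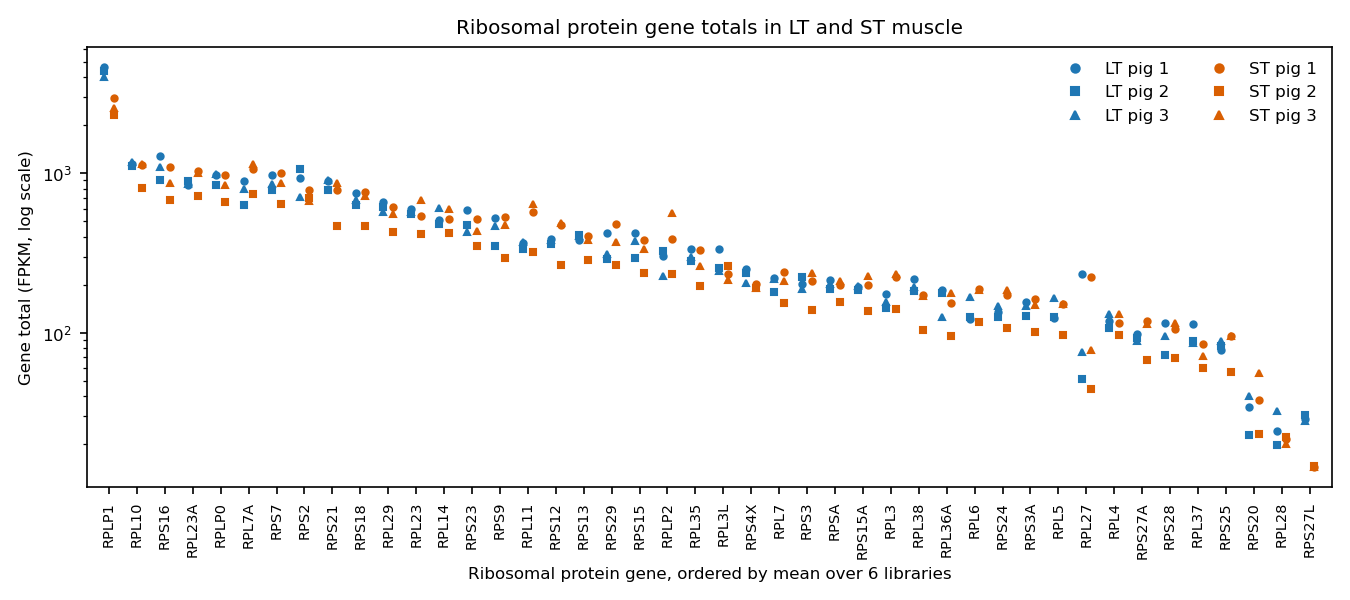
Gene totals of 44 of the 47 members above 0, in FPKM on a log axis, ordered by their mean; each point is 1 library, with LT in blue, ST in orange and a marker shape for each pig. RPLP1 lies on top, ST of pig 2 is the lowest point of 37 of them, and RPL27 splits by pig.

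Part of this order goes with the annotated length of the transcripts. The transcript with the highest mean of each member ranged from 372 bases in RPS28 to 7044 bases in RPS20, with a median of 1020, although the proteins of nearly all members are small. Across the 47 members, log2 FPKM and log2 length had a Pearson r of -0.67 and a Spearman rho of -0.59, which are across genes of the same libraries and share the length in the unit. The 11 members with a leading transcript over 2000 bases had a median of 116 FPKM, from 21.7 to 183, and the others a median of 385. The SD of log2 FPKM across members was 1.5, and that of log2 of FPKM times length was 1.13. Levels of different members are thus set side by side only with their annotated lengths in view.

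The totals of these genes gave no call between LT and ST. In the limma test on log2(FPKM + 0.1), no member of 47 had an adjusted p under 0.05 with an absolute log2 fold change above 1, where 113 of the 19672 genes tested (0.574%) did. At an unadjusted p under 0.05 there was 1 member, against 3693 of all genes (18.8%). The absolute log2 fold change was under 0.5 for 45 of the 47 members, and standard errors ranged from 0.15 to 0.69 with a median of 0.25. The median log2 fold change (ST minus LT) was -0.091 for the members and 0.13 for all genes, and 34 members were negative and 13 positive. The 1621 other genes with a mean FPKM at or above that of the lowest member had a median of 0.035. The large subunit had a median of -0.093 and the small subunit one of -0.091. Without ST replicate 2, the median of the members was 0.084, with 29 members positive and 18 negative, against 0.18 for all genes. The sign of the median turned with that library.

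**Figure D2:**
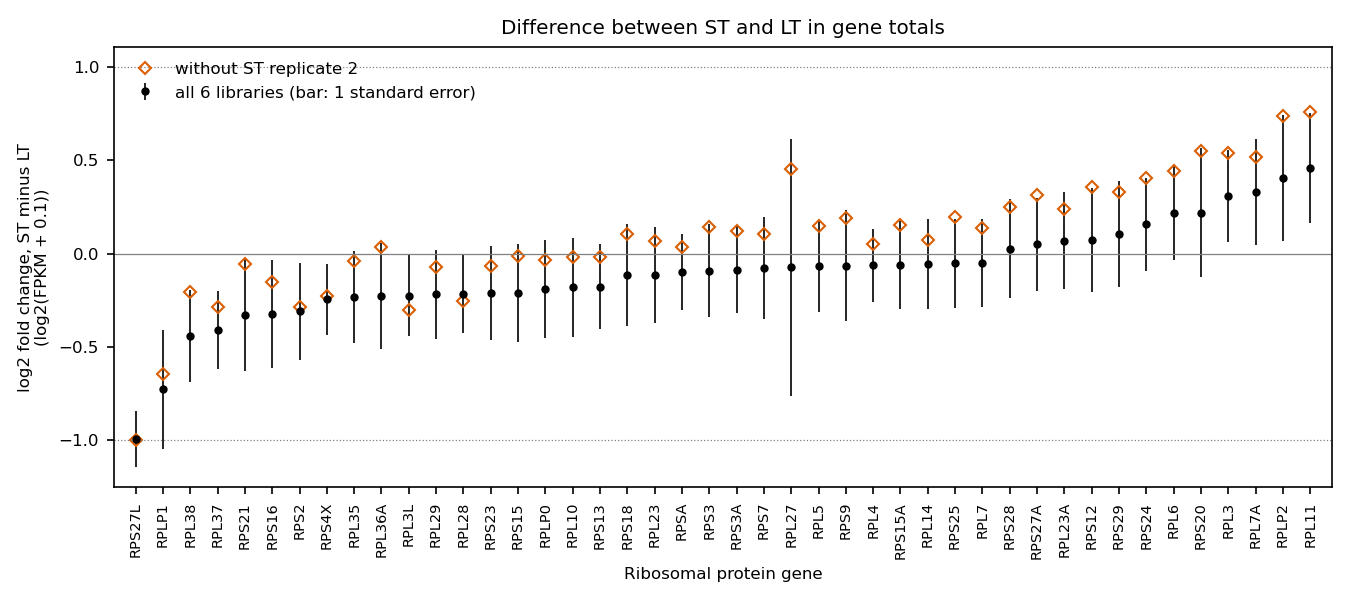
Log2 fold change of each gene total (ST minus LT) on the log2(FPKM + 0.1) scale for 44 of the 47 members tested, with 1 standard error from limma (black, 6 libraries) and the value without ST replicate 2 (orange diamonds); dotted lines mark a difference of 1. All but RPS27L and RPLP1 lie within 0.5 of zero with all libraries, and most diamonds lie above their black points.

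The values of LT and ST did not overlap for 5 members, RPLP1, RPS27L, RPL37, RPL38 and RPS4X, all lower in ST. That is 10.6% of members, beside 8.08% of all genes (1590 of 19672). No member was higher in ST without overlap, where 3275 of all genes (16.6%) were. Without ST replicate 2, where fewer libraries have to separate, 12 members were higher in ST without overlap, among them RPL3, RPL6, RPL7A, RPL11, RPL23A, RPLP2 and RPS27A, beside 5863 of 19515 genes (30.0%), and 6 were lower, beside 2461 genes (12.6%). The list of nuclear-encoded respiratory chain genes gave another picture in the same libraries: 32 of its 58 genes were higher in ST without overlap and their median log2 fold change was 0.61, although none passed the adjusted test and 32 had an unadjusted p under 0.05.

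RPS27L, a paralog of RPS27 and known as a target of p53, came closest to a call. Its total was 28.6, 30.3 and 28.0 FPKM in LT and 14.3, 14.6 and 14.5 in ST, on chromosome 1 from 108881552 to 108890283 on the plus strand. The groups lay far apart and each was tight, with means of 28.9 ± 1.21 and 14.5 ± 0.134 (SD, n = 3), a ratio of 2.001 of LT to ST. The difference was -0.995 on the log2 scale with a standard error of 0.15, just short of the limit of 1, and the adjusted p from limma was 0.0408, the only one under 0.05 among the members, against 114 of all genes (0.58%). It was -0.99, -1.05 and -0.95 in the 3 pigs. Both transcripts took part: ENSSSCT00000027612 had 25.01, 25.7 and 25.2 FPKM in LT and 12.9, 13.5 and 13.1 in ST, and ENSSSCT00000080692 had 3.57, 4.62 and 2.80 in LT and 1.45, 1.14 and 1.34 in ST. ST replicate 2, low for most members, did not stand out here. Without a variance trend the adjusted p was 0.0891, and without any 1 library other than ST replicate 2 it lay from 0.106 to 0.181. With quantile normalization the difference was -1.07 (adjusted p = 0.045 from limma) and with FPKM rescaled to a common sum -1.01 (adjusted p = 0.0421). Without ST replicate 2 it was -1.002 (adjusted p = 0.0201). Each of these counts as a call. Without ST replicate 2, however, 991 of the 19515 genes tested (5.08%) were called, and for the other settings no such share is given.

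RPLP1 was lower in ST in each pig. The values were 4630.1, 4350.2 and 3992 FPKM in LT and 2981, 2329 and 2550.5 in ST, so that each ST library lay below each LT library. The log2 fold change was -0.73 with a standard error of 0.32 (adjusted p = 0.271 from limma), lower in ST in 3 of 3 pigs, and -0.65 without ST replicate 2. RPLP1 alone made up 19.2, 20.5 and 18.3% of the summed FPKM of all members in LT and 13.1, 15.1 and 11.9% in ST, again without overlap. All members together held 6.54, 5.99 and 6.16% of listed mRNA FPKM in LT and 6.03, 4.33 and 5.65% in ST, and these ranges overlapped. With RPLP1 left out, the shares were 5.29, 4.77 and 5.03% in LT and 5.24, 3.68 and 4.98% in ST, and the difference of the means shrank from -0.893 to -0.396 percentage points.

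The other proteins of the stalk overlapped between muscles. RPLP0, its base, had 970, 847 and 987 FPKM in LT and 979, 660 and 845 in ST (log2 fold change -0.19, standard error 0.26, and -0.036 without ST replicate 2). RPLP2, the acidic partner with which RPLP1 pairs, had 301, 323 and 225 in LT and 388, 234 and 561 in ST (0.41, standard error 0.34). The difference of RPLP2 moved to 0.74 without ST replicate 2 and to 0.11 without ST replicate 3.

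**Figure D3:**
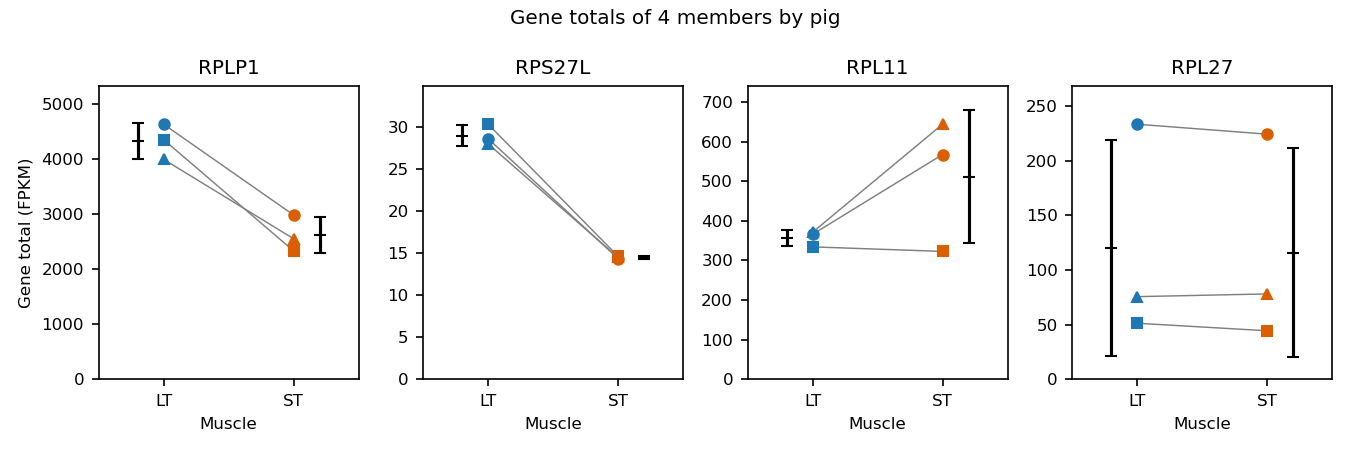
Gene totals in FPKM of RPLP1, RPS27L, RPL11 and RPL27 in LT (blue) and ST (orange), with a marker shape per pig, a grey line joining the muscles of a pig, and black bars for the mean and SD of 3 libraries. RPLP1 and RPS27L are lower in ST in each pig, RPL11 overlaps between muscles, and RPL27 keeps the order of the pigs in both muscles.

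The other members with the smallest p in either direction gave no call. RPL37 had 114, 88.3 and 86.8 FPKM in LT and 85.4, 60.3 and 71.8 in ST (adjusted p = 0.335 from limma). RPL38, known for its part in the translation of Hox mRNAs in the mouse, had 217, 184 and 194 in LT and 172, 104 and 170 in ST (adjusted p = 0.372). RPS4X, the X-linked form of RPS4, had 251, 237 and 205 in LT and 201, 190 and 192 in ST. In all 3 of them the muscles did not overlap. The log2 fold change of RPL38 was -0.44, and -0.21 without ST replicate 2. Of the 5 with the smallest p and a positive difference, RPL11, RPL3 and RPLP2 are given elsewhere. RPL7A had 897, 630 and 796 in LT and 1055, 741 and 1142 in ST, and RPL6 had 122, 126 and 166 and 187, 116 and 185. Without ST replicate 2 their log2 fold changes went from 0.33 to 0.52 and from 0.22 to 0.44, and that of RPL3 from 0.31 to 0.54. RPL7A and RPS20 were among 3 members higher in ST in all 3 pigs, and 13 members were lower in all 3. In pig 2 alone, 42 members were lower in ST, and no share over all genes is given for these counts.

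RPL3L and RPL3 occupy the same site near the centre of the large subunit. RPL3L had 335, 254 and 244 FPKM in LT and 232, 261 and 214 in ST, and RPL3 had 174, 143 and 157 in LT and 224, 141 and 234 in ST. Both overlapped between muscles. RPL3L exceeded RPL3 in all 3 LT libraries, by a ratio of 1.92, 1.78 and 1.56, and in ST the ratio was 1.04, 1.85 and 0.916. The log2 ratio was 0.80 ± 0.153 (SD, n = 3) in LT and 0.27 ± 0.542 in ST, a difference of -0.53 with an exact two-sided permutation p of 0.3, where 3 against 3 libraries cannot go below 0.1. The difference was -0.89 and -0.77 in pigs 1 and 3 and 0.054 in pig 2, and over the pairs the exact p was 0.5, where 3 pairs cannot go below 0.25. Without ST replicate 2 it was -0.84.

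By role, no list of members held a call. RPL5 and RPL11 form the particle of the 5S rRNA: RPL5 had 124, 125 and 166 FPKM in LT and 152, 96.9 and 151 in ST, and RPL11 is described below. Among proteins of the exit tunnel, RPL4, RPL23A and RPL35 had log2 fold changes of -0.063, 0.069 and -0.23, and of 0.052, 0.24 and -0.040 without ST replicate 2. Along the path of the mRNA on the small subunit, RPS2, RPS3 and RPS28 had -0.31, -0.091 and 0.026, and -0.29, 0.14 and 0.25 without that library. A list of members known to bind MDM2 (RPL5, RPL11, RPL23 and RPS7) had a median of -0.072. A list of 5 members known from Diamond-Blackfan anaemia had one of -0.066, beside 0.13 over all genes. Without ST replicate 2 these medians were 0.13 and 0.15, beside 0.18 over all genes. Both lists may leave out other members with the same role. RPSA, a small-subunit protein also known as a laminin receptor, had 215, 187 and 201 in LT and 200, 156 and 211 in ST. RPS27A, made as a fusion with ubiquitin, had 98.1, 93.1 and 88.9 in LT and 119, 66.9 and 113 in ST. RPL5, RPSA and RPS27A overlapped between muscles with all libraries, and without ST replicate 2 their log2 fold changes turned from -0.066 to 0.15, turned from -0.099 to 0.033 and went from 0.050 to 0.31.

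RPL11 gave a call in its transcripts but not in its total. The gene lies on chromosome 6 from 81522726 to 81530459 on the plus strand, and its total was 366, 334 and 371 FPKM in LT and 567, 323 and 644 in ST, with overlap. The log2 fold change of the total was 0.46 with a standard error of 0.30 (adjusted p = 0.444 from limma), higher in ST in 2 of 3 pigs, and 0.76 (adjusted p = 0.063) without ST replicate 2. Its transcript ENSSSCT00000045795, of 7 exons and 616 bases, had an FPKM of 0 in each LT library and 562, 298 and 638 FPKM in ST (adjusted p = 0.000276 from limma, and 0.0273 with the pig as a block). Its transcript ENSSSCT00000022802, of 6 exons and 619 bases, had 358, 326 and 361 FPKM in LT and 3.70, 13.4 and 5.21 in ST, a log2 fold change of -5.75 with a standard error of 0.46 (adjusted p = 0.0148, and 0.184 with the pig as a block). The FPKM of each library thus assigned nearly the whole gene to 1 of the pair, and which one changed with the muscle. The position of each exon is not given, so the reads that tell the pair apart could not be looked at.

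The files list the same start and end for both of these transcripts, chromosome 6 from 81522726 to 81526928, and their lengths differ by few bases. ENSSSCT00000022802 made up 97.9, 97.5 and 97.4% of the RPL11 total in LT and 0.651, 4.15 and 0.809% in ST. ENSSSCT00000045795 made up 0% in LT and 99.0, 92.3 and 99.1% in ST. The other transcripts were minor: ENSSSCT00000071333 had 1.2005, 1.41 and 2.70 FPKM in LT and 0.049, 7.07 and 0.181 in ST, and ENSSSCT00000088005, which runs on to the end of the gene with 4543 bases, had 6.45, 6.96 and 7.10 in LT and 1.71, 4.23 and 0.654 in ST. RPL11 was 1 of 2 genes in the files with called transcripts in both directions, and the other was MYH14, which was looked up after its values were seen.

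**Figure D4:**
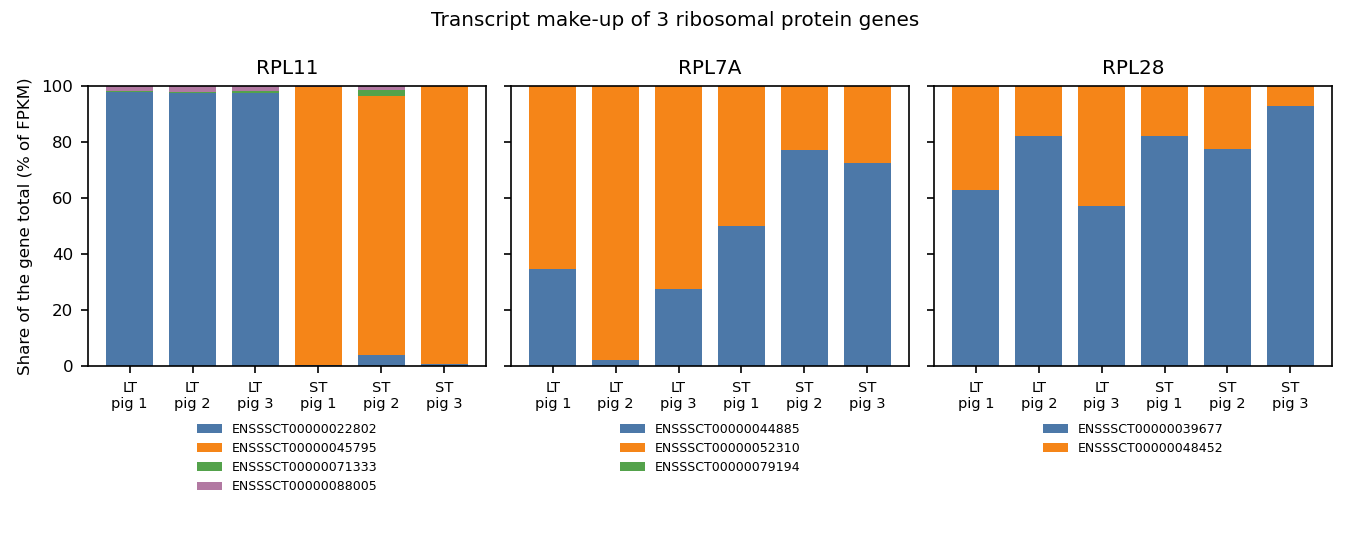
Share of each transcript in the gene total (% of FPKM, stacked to the whole) for RPL11, RPL7A and RPL28 in each of the 6 libraries; colours stand for the transcripts named under each panel. In RPL11 the leading transcript differs between all LT and all ST libraries, in RPL7A ENSSSCT00000044885 takes 2.29 to 34.6% in LT and 50.1 to 77.2% in ST, and in RPL28 the share of ENSSSCT00000048452 is 18.0 to 42.8% in LT and 7.16 to 22.5% in ST.

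Over all members, 4 of the 107 transcripts tested were called, beside 76 of 52102 in all (0.146%). Of these, 3 were higher in ST, beside 43 of all transcripts (0.0825%), and 1 was lower, beside 33 (0.0633%). With the pig as a block, 1 member transcript, ENSSSCT00000045795 of RPL11, was among 2 called of all 52102 (0.00384%). The RPL11 pair made up 2 of the 4 calls, and its transcripts moved against each other within the gene. RPL11 was named in advance with an earlier call of ENSSSCT00000045795 in these data known. The share of member transcripts called is thus not independent of that choice. No share was computed for other genes of like level or with as many transcripts.

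RPL7A, another protein of the large subunit, changed its leading transcript without a call. ENSSSCT00000044885 had 311, 14.4 and 221 FPKM in LT and 529, 572 and 827 in ST (adjusted p = 0.516 from limma), and ENSSSCT00000052310 had 586, 615 and 575 in LT and 527, 169 and 315 in ST (adjusted p = 0.513). The muscles did not overlap in either transcript, but the libraries of 1 muscle differed widely. The share of ENSSSCT00000044885 came to 34.6, 2.29 and 27.8% in LT and to 50.1, 77.2 and 72.4% in ST. RPL11 and RPL7A were the only members whose transcript with the highest mean differed between muscles, of 34 members with more than 1 transcript above 0.1 FPKM. In RPL28 the share of ENSSSCT00000048452 came to 36.9, 18.0 and 42.8% in LT and to 17.7, 22.5 and 7.16% in ST, with overlap. In RPL10 ENSSSCT00000041617 held 87.2, 57.6 and 75.8% in LT and 83.8, 83.9 and 79.7% in ST, so that ST lay within the range of LT.

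Some transcripts of the members begin far upstream of the others of the gene. ENSSSCT00000044885 of RPL7A starts 154358 bases from the nearest other start and ENSSSCT00000042838 of RPLP2 72747 bases. The last had 278.99, 305 and 209 FPKM in LT and 359, 218 and 524 in ST, and made up over 90% of RPLP2 in both muscles. The files give the number of exons but not the position of each, so the reads that tell such transcripts apart could not be looked at.

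RPL27 differed between pigs. It had 234, 51.2 and 75.6 FPKM in LT of pigs 1, 2 and 3 and 225, 44.3 and 78.1 in ST of the same pigs. The difference between muscles was -0.073 on the log2 scale, with a standard error of 0.69 without a pig block and 0.16 with it. The range of RPL27 between pigs was 2.26. In a limma F-test between pigs with the muscle in the fit, a comparison added after the data were seen, it was the only member called (adjusted p = 0.0391, range above 1 on the log2 scale), where 35 of 19672 genes were (0.178%). The call was lost with a filter at a mean FPKM of 1, with quantile normalization and without a variance trend. The median range between pigs was 0.43 over members and 0.48 over all genes. Among single transcripts none passed that test, of members or of others, and 0 of 52102 were called. In RPL38, ENSSSCT00000045754 had 5.49, 4.57 and 54.2 FPKM in LT and 5.48, 4.51 and 40.6 in ST, high in both muscles of pig 3, and it was chosen after its values were seen.

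Genes that work with the ribosome were counted in lists outside the members, and none held a call from gene totals. Ribosomal proteins under other names (5 of 7 tested) had a median log2 fold change of 0.0057, among them RACK1 with 495, 409 and 491 FPKM in LT and 468, 363 and 453 in ST. A list of EEF genes (6 of 8 tested), which holds elongation factors but also the kinase EEF2K, had a median of -0.13. Of its genes, 3 were lower in ST without overlap, EEF1B2, EEF1D and EEF2K. EEF2K, the kinase that inhibits EEF2, had 26.6, 33.5 and 28.0 in LT and 11.0, 16.4 and 10.3 in ST (log2 fold change -1.24, standard error 0.22, adjusted p = 0.058 from limma). EEF1A2, the elongation factor form of muscle, had 1226, 811 and 1094 in LT and 1073, 945 and 1067 in ST. Other mRNAs with a terminal oligopyrimidine tract (10 tested) had a median of -0.029, genes that control the ribosome -0.029 (11 tested), ribosome assembly factors 0.070 (18 tested) and RNA polymerase I with its factors 0.099 (10 tested). Proteins of the mitochondrial ribosome had a median of 0.16 over 63 genes, with 8 higher and 6 lower in ST without overlap, and the proteasome one of -0.17 over 34 genes. All of these medians but that of the mitochondrial ribosome lay below the 0.13 of all genes. Without ST replicate 2, the mitochondrial ribosome had 0.20 and all genes 0.18, and the other lists lay from -0.15 for the proteasome to 0.14 for RNA polymerase I. The median of the other mRNAs with a terminal oligopyrimidine tract turned to 0.046 there, and that of the EEF genes moved to -0.053.

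The 16 position-matched loci above 0 also held no call. None had an unadjusted p under 0.05, and all overlapped between muscles. RPL8 was the highest of them with 737, 647 and 652 FPKM in LT and 723, 484 and 766 in ST, and RPL39, at the wall of the exit tunnel, had the lowest log2 fold change at -0.38. With these loci added to the members, the median log2 fold change over 63 genes was -0.091.

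Unannotated multi-exon transcripts lay on the opposite strand of most members. At 31 of 47 members (66.0%) at least 1 such transcript shared 50% or more of both spans with a transcript of the gene, and at 28 of them it had the exon number of one. Together these 44 transcripts had a median level of 5.69% of the gene total, from 1.33% at RPL10 to 33.1% at RPL37, and the files class 27 of them as lncRNA and 17 as mRNA. Of other annotated genes, 5789 of 13947 had such a transcript (41.5%). By level, 184 of 330 other annotated genes with a mean FPKM of at least 100 had one (55.8%), as had 1850 of 2878 from 10 to 100 FPKM (64.3%). At RPLP1 the opposite strand had 269, 247 and 249 FPKM in LT and 158, 117 and 122 in ST, and at RPL27 6.29, 0.733 and 1.31 in LT and 4.59, 0.816 and 1.40 in ST. Both had the pattern of the gene on the other strand. At RPL11, LNC_009470 was at 0 in LT and at 7.31, 5.88 and 8.06 in ST, and Novel_007131 had 10.9, 18.3 and 16.2 in LT and 6.998, 5.69 and 6.79 in ST. Over the 6 libraries, the log2 values of gene and opposite strand had a median r of 0.91 across the 31 members, from 0.59 at RPS4X, and these share library and depth. Whether strand was used in assembly is not given in the sources used here, so that reads of a gene and of its opposite strand cannot be told apart.

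**Figure D5:**
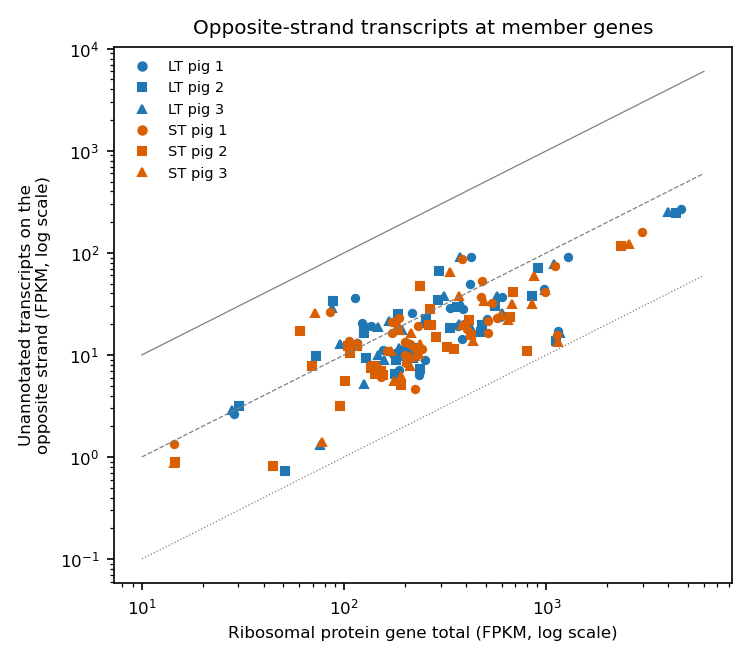
FPKM summed over unannotated multi-exon transcripts on the opposite strand of 28 of the 31 members with any (y axis, log) against the gene total (x axis, log), 1 point per member and library, LT in blue, ST in orange, marker shape by pig; grey lines mark equal levels (solid) and ratios of 1 in 10 (dashed) and 1 in 100 (dotted). Most points lie below the dashed line, while RPL6, RPL37, RPS15, RPS28 and RPS29 lie above it in each library. The median over all 31 members is 5.69% of the gene total.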

How the data were processed

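LT and ST muscle of 3 Min pigs gave 6 libraries (TRIzol RNA, rRNA removed, stranded kit). Reads were cleaned by the authors with SOAPnuke and aligned to Sus scrofa 11.1 by HISAT2. StringTie then gave the transcripts, and the deposited values are their FPKM. The files hold no counts, so precision rests on the 3 libraries per muscle.

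FPKM was summed per gene ID over mRNA transcripts. Gene totals and transcripts above 0.1 FPKM in at least 1 library were compared in limma 3.58.1 (R 4.3.3), as log2(FPKM + 0.1), allowing the variance to follow the level, with Benjamini-Hochberg adjustment over all features. Features were called at an adjusted p below 0.05 where the log2 difference was also larger than 1 in size. The fit was tested on simulated data with independent noise, no pairs of a pig and changes well above the limit of 1. Differences near that limit, such as that of RPS27L, were not covered, and no outcome is given here. Log2 fold changes understate those of low genes. The RPL3L to RPL3 ratio had an exact permutation test (scipy 1.17.1). Symbols and RefSeq loci were matched by gene ID or, for loci without a symbol, by overlap of 50% of both spans on Sscrofa11.1.

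LT and ST of a number come from 1 pig, and the residuals of such pairs had r of 0.29, 0.261 and 0.292. The mean between pigs was -0.141, which is not independent of those values, because residuals were centred within each muscle. The fit had no block, and the study's methods name none.

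Named were RPL11, RPL3, RPL3L, the P-stalk genes, RPSA, RPS6 (no symbol in the files), RPS27A, members called by total or transcript, the 5 highest and 3 lowest, the 5 smallest p in each direction, the 5 largest changes of transcript shares, and members at 0 in a muscle. RPL27, RPL38 transcripts, opposite strands and position-matched loci were added after values were seen. Members and lists were chosen with earlier results of these data known. No sequence is printed. Some members the rule chose are counted but not reported singly here.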

Additional observations from a re-analysis of the deposited data

How the results depend on the processing

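The count of members called from gene totals was 0 in the fit reported and 1, RPS27L, with quantile normalization (log2 fold change -1.07), with quantile normalization and the pig block together (1 call), with FPKM rescaled to a common sum (1 call, -1.01) and without ST replicate 2 (1 call, -1.002); leaving out each library in turn gave 0 to 1. Without ST replicate 2, 991 of 19515 genes (5.08%) were called, against 0.574% of genes in the fit reported. For the other settings no share over all genes is given. The count of member transcripts called fell from 4 to 1 with the pig (replicate number) as a block, and to 1 with the block and quantile normalization. It ranged from 2 to 4 when each library was left out, with the lowest count without ST replicate 3, and from 3 to 4 with other pseudocounts, filters and scalings. Over all transcripts, 0.146% were called in the fit reported and 0.00384% with the block. For the other settings no such share is given, so these counts have nothing to be set beside. The pig block left the count from gene totals at 0 and changed no other call. ENSSSCT00000045795 of RPL11 stayed called in 17 of 17 alternatives, with adjusted p from 0.000114 to 0.0305 from limma. ENSSSCT00000022802 of RPL11 lost its call in 7 of 17 alternatives, with adjusted p from 0.00275 to 0.195 over all of them. The RPL11 total was called in none of its 16 alternatives.

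The median log2 fold change of the members was -0.20 with quantile normalization, where all genes had -0.0056, and 0.021 with FPKM rescaled to nuclear transcripts, where all genes had 0.23; leaving out each library gave -0.22 to 0.084. It was thus below that of all genes in each of these settings, but its own sign was not settled. For other genes at or above the mean of the lowest member, the median is given only for the fit reported (0.035). The members' share of mRNA FPKM (ST minus LT) ranged from -1.24 to -0.391 percentage points over left-out libraries, and was -0.428 over nuclear mRNA alone. The log2 ratio of RPL3L to RPL3 differed by -0.84 to -0.33 over left-out libraries.

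Signs of single totals were not settled, and the cause was not tested. Against the fit reported, 16 of 47 members turned without ST replicate 2, 12 with nuclear scaling, where 22 were negative in place of 34, and 4 with quantile normalization, where 38 were negative. Values for the members chosen by the rule follow. Leaving out each library in turn gave -0.026 to 0.24 for RPL23A, -0.72 to 0.56 for RPL27, -0.084 to 0.55 for RPS20, -0.10 to 0.31 for RPS27A and -0.19 to 0.033 for RPSA. With nuclear scaling RPL27 was at 0.039 and RPSA at 0.013, and with quantile normalization RPS27A was at -0.11 (-0.11 with the block). All transcripts under the members' gene IDs are annotated, so annotated transcripts alone gave the same values. An overlap of 80% for opposite strands and companions with the same exon number alone were also tried, after the data were seen, with no change beyond the spread of the libraries.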
